A study of Mus musculus with 88 samples.

Results

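The 9 genes described here encode the A-, B-, D- and E-type cyclins of mouse: Ccna1, Ccna2, Ccnb1, Ccnb2, Ccnd1, Ccnd2, Ccnd3, Ccne1 and Ccne2. They were taken by symbol from both deposited expression tables, in which all 9 of 55364 listed genes were found, and were followed across 19 libraries of embryonic stem cells (mESCs) and 6 libraries of late 2-cell embryos. Cyclins are the regulatory subunits of cyclin-dependent kinases. D-type cyclins with Cdk4 or Cdk6 and E-type cyclins with Cdk2 promote entry into S phase by phosphorylating the retinoblastoma proteins, cyclin A2 acts in S phase and G2, and B-type cyclins with Cdk1 drive mitosis. Mouse embryonic stem cells cycle fast, with a short G1 phase, and the early embryo divides first on RNA and protein laid down in the oocyte.

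The mESCs were wild-type, of a hybrid C57BL/6 / 129 background, and were kept in medium with 15% serum, LIF, a MEK inhibitor and a GSK3 inhibitor. Plasmids were introduced by lipofection. The replicated groups, of 2 libraries each, received Dux (ES_Dux), Obox3 (ES_Obox3), Obox5 (ES_Obox5), Obox6 (ES_Obox6) or an empty plasmid (ES_Empty). A further 9 constructs had 1 library each: Obox1, Obox2, Obox4ps27, Obox4ps35, Obox7, Obox8, Crxos1, Crxos2 and Crxos3. Dux and the Obox genes encode homeobox transcription factors of the first embryonic cleavages. The embryos were wild-type and had reached the late 2-cell stage. SCNT embryos of BDF1 background, made by placing a cumulus cell nucleus in an enucleated oocyte, had been injected with Obox3 mRNA (SCNT_Obox3) or with EGFP mRNA (SCNT_EGFP), each at 10 ng/µl, and ICSI embryos, made by sperm injection, came from BDF1 x BDF1 crosses. The labels do not say which libraries came from separate transfections or embryo collections, so p-values measure the spread between these libraries, which may be technical. A transfected culture also holds cells that took up no plasmid.

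The B-type pair is shown by sequence because its members gave unlike values in the plasmid comparisons below. RefSeq promoters of build GRCm38.p6, running from 250 bases before to 50 bases after the gene start, were found for 5 of the 9 genes (Ccna1, Ccnb1, Ccnb2, Ccnd3 and Ccne1). The Ccnb1 window lies at chr13:100786437-100786736 and the Ccnb2 window at chr9:70421505-70421804, both on the minus strand. They are printed 5′ to 3′ with CCAAT and TTTGAA in capitals. CCAAT is the box bound by NF-Y. TTTGAA is a common form of the cell cycle genes homology region (CHR) of many G2 and M phase promoters.
Ccnb1: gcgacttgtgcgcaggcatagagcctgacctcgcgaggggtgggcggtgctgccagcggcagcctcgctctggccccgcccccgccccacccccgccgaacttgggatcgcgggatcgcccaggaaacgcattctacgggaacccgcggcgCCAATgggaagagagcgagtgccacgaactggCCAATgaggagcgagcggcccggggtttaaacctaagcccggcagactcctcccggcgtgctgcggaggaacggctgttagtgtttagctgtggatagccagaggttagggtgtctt
Ccnb2: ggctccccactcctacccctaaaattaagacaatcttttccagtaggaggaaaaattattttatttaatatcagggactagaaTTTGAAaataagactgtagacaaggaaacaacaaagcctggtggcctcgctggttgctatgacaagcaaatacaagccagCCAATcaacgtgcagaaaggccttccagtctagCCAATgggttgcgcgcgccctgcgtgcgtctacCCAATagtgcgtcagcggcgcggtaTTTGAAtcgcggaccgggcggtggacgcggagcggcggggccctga
The Ccnb2 window held 3 CCAAT boxes, which began 87, 54 and 21 bases before the start, and 2 TTTGAA matches, which began 167 bases before and 5 bases after it. The Ccnb1 window held 2 CCAAT boxes, 99 and 67 bases before the start, and no TTTGAA. Other forms of the CHR were not searched for, so a lack of TTTGAA does not show a lack of a CHR. Both strands were searched, and the motifs do not overlap in these windows. Of 32544 RefSeq promoters of the same length, 37.4% held CCAAT and 17.8% held TTTGAA. The Crx/Otx-type letters TAATCC, present in 7.06% of promoters, and the E2F-type letters TTTNGCGC, present in 1.39%, were found in none of the windows of the 5 genes. A match is a description of the letters, not of a bound site.

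Values are TPM as deposited, which set gene levels per length against all RNA of a library. The number of genes at 1 TPM or more was 12071 to 17597 per mESC library and 15604 to 16450 per embryo library. The 10 most abundant genes took 72.1% and 70.1% of all TPM in ES_Dux, against 54.5% and 58.8% in ES_Empty. They took 64.3% and 73.8% in ES_Obox3, 59.7% and 61.8% in ES_Obox5, and 54.1% and 60.9% in ES_Obox6. In embryos they took 72.6% and 69.3% in SCNT_EGFP and 67.9% and 68.0% in SCNT_Obox3, against 60.1% and 57.4% in ICSI. The median gene was lower by 0.97 (log2) in ES_Dux than in ES_Empty. The median log2 difference of all tested genes was -0.42 for ES_Obox3, -0.20 for ES_Obox5 and -0.09 for ES_Obox6 against ES_Empty, and -0.20 for SCNT_EGFP and -0.22 for SCNT_Obox3 against ICSI embryos. Each result is therefore given as deposited and after median-ratio scaling, which sets the libraries level over genes that all of them express. Sums of marker genes are given as deposited only. Of all genes called against ES_Empty, 8.49% were higher in ES_Dux as deposited and 74.8% after scaling. The same share was 25.6% and 67.3% for ES_Obox3, 46.7% and 72.5% for ES_Obox5, and 54.5% and 73.8% for ES_Obox6. Against ICSI embryos it was 27.7% and 46.8% for SCNT_EGFP and 30.7% and 53.3% for SCNT_Obox3, and against SCNT_EGFP it was 71.4% and 86.6% for SCNT_Obox3. Transcripts of Duxf3 stood at 1548 to 1979 TPM where Dux was delivered, against at most 1.45 TPM in the other 17 mESC libraries. Obox5 (933 to 971 TPM) and Obox6 (1959 to 2031 TPM) were as far apart from the rest, whereas Obox3 stood at only 1.59 to 1.75 TPM in ES_Obox3, against at most 0.502 TPM elsewhere. All 6 stem cell markers examined were at 1 TPM or more in each mESC library.

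In control mESCs Ccne1 and Ccnb2 were the most abundant of these transcripts. Ccne1 averaged 107 ± 14.7 TPM in ES_Empty (SD, n = 2), Ccnb2 87.6 ± 9.30, Ccnb1 53.3 ± 8.10, Ccna2 52.5 ± 3.14, Ccnd3 23.7 ± 3.95, Ccnd1 21.2 ± 0.0947 and Ccne2 10.0 ± 0.292 TPM. The ranges of Ccnb1 and Ccna2 overlapped, as did those of Ccnd3 and Ccnd1, so their order was not resolved. Ccnd2 stood at 0.77 and 0.83 TPM. Ccna1, the A-type cyclin of the male germ line, was close to absent, with at most 0.559 TPM in any of the 19 mESC libraries and 0 in 5 of them.

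**Figure D1:**
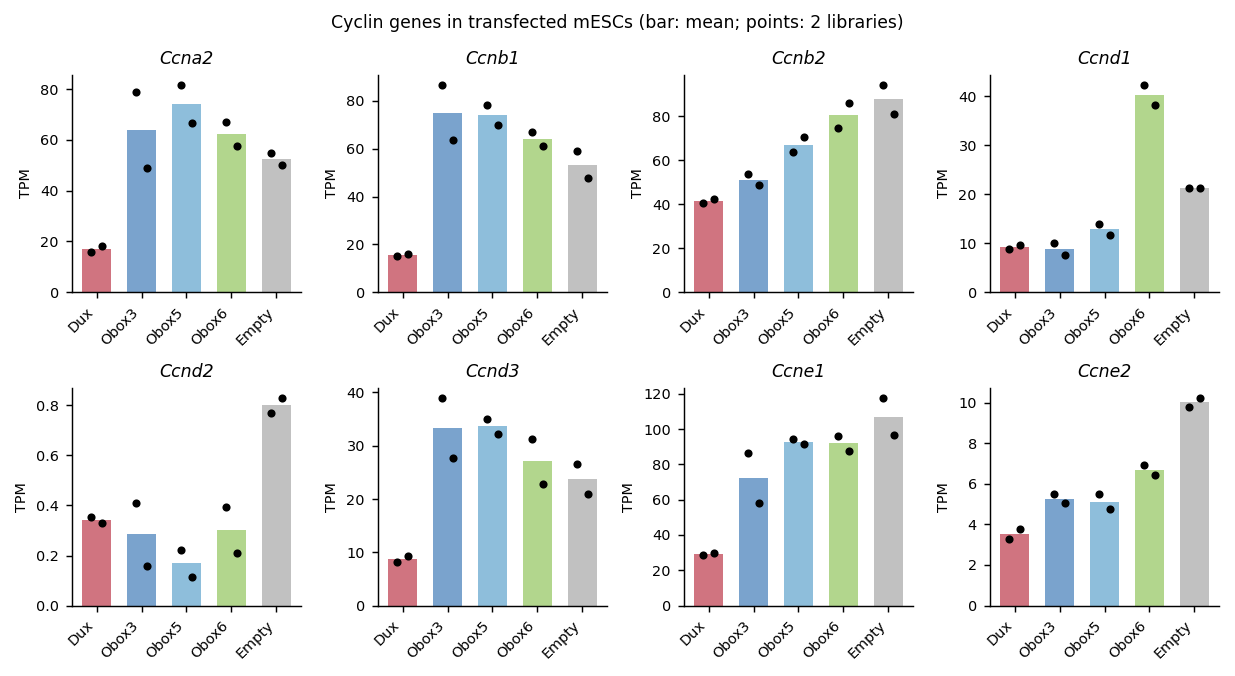
TPM of 8 cyclin genes (one panel each, linear axes from 0) in mESCs transfected with Dux, Obox3, Obox5, Obox6 or the empty plasmid; bars are means and points the 2 libraries of a group. Dux libraries are the lowest for Ccna2, Ccnb1, Ccnb2, Ccnd3, Ccne1 and Ccne2, and Obox6 libraries are the highest for Ccnd1, at 38.2 and 42.3 TPM.

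With Dux, every cyclin that could be tested was lower in TPM, but so was most of the transcriptome. Ccnb1, a mitotic cyclin, had 15.1 and 16.2 TPM in ES_Dux, against 59.0 and 47.6 TPM in ES_Empty. Ccne1, which acts at the G1 to S transition, had 28.7 and 29.7 TPM in ES_Dux, against 117 and 96.6 TPM in ES_Empty. The groups did not overlap for either gene. Ccna2 had 16.0 and 18.4 TPM in ES_Dux and 54.7 and 50.3 TPM in ES_Empty. By limma on log2(TPM + 1), with a call needing a Benjamini-Hochberg adjusted p under 0.05 and a change of 2-fold, all 7 tested cyclins fell, where 44.4% of all genes tested were called lower and 4.12% higher. In such bulk libraries, fewer cells that express a gene and less RNA per cell cannot be told apart. Ccna1 and Ccnd2 did not pass the filter of 1 TPM in 2 libraries. Of the 7, Ccne1 differed most, by -1.83 on the log2 scale (limma SE 0.217, adjusted p = 0.000336), which is -0.87 relative to the median gene. Ccnb2 differed least, by -1.06 (SE 0.174), or -0.10 relative to the median gene. That median covers all tested genes, and the log2(TPM + 1) scale understates the change of low ones. Against libraries set level by median-ratio scaling, Ccne1 was at -0.44 and Ccnb2 at 0.34.

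After median-ratio scaling none of the 7 cyclins was called in ES_Dux by limma (2 had an unadjusted p under 0.05), where 2.3% of all genes were called lower and 6.83% higher. Ccne1 then differed by -0.44 (SE 0.069, adjusted p = 0.00463) and Ccnb1 by -0.33 (SE 0.0723, adjusted p = 0.0172), both short of 2-fold, while Ccnb2 at 0.34 and Ccnd1 at 0.20 had the opposite sign to their deposited values. As deposited, stem cell markers summed to 334 and 360 TPM in ES_Dux, against 1189 and 1009 TPM in ES_Empty. Markers of the 2-cell stage summed to 1882 and 2075 TPM, against 1.77 and 0.135 TPM. Scaling divides TPM by 0.5225 and 0.5541 in ES_Dux and by 1.555 and 1.336 in ES_Empty. Most of the gap between the stem cell sums is thus the shift of the whole libraries. The part of these markers in the cyclin values was not tested.

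With Obox3, Ccnd1 was lower in TPM. Ccnb1 and Ccnd3, and short of 2-fold Ccna2, were higher once the libraries were set level. Ccnd1, the D-type cyclin that growth signals induce in many cells, had 10.0 and 7.58 TPM in ES_Obox3, against 21.3 and 21.2 TPM in ES_Empty. It was the 1 cyclin called, and it fell by 1.19 on the log2 scale (SE 0.188, adjusted p = 0.00266, limma), where 13.6% of all genes were called lower and 4.67% higher. After scaling its difference was -0.59 (adjusted p = 0.00428), short of 2-fold.

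Ccnb1 had 86.6 and 63.5 TPM in ES_Obox3, against 59.0 and 47.6 TPM in ES_Empty. Ccnd3, the D-type cyclin best known from lymphocytes, had 38.9 and 27.6 TPM in ES_Obox3, against 26.5 and 20.9 TPM in ES_Empty. Both lay above their controls in each library, at 0.48 and 0.46 on the log2 scale as deposited, and neither was called. After scaling they were the 2 cyclins called, both higher, at 1.10 (SE 0.0723, adjusted p = 7.4e-05, limma) for Ccnb1 and 1.07 (SE 0.1, adjusted p = 0.000326) for Ccnd3, where 7.74% of all genes were called higher and 3.76% lower. Ccnb2, the second B-type cyclin, went the other way in TPM, with 53.7 and 48.6 TPM in ES_Obox3 and 94.2 and 81.1 TPM in ES_Empty. Its difference of -0.76 (adjusted p = 0.0129) was short of 2-fold and became -0.13 after scaling. Ccne2 likewise was at -0.81 as deposited (adjusted p = 0.00869, limma) and -0.24 after scaling. Ccna2, which overlapped its controls in TPM, was at 0.24 as deposited. After scaling it was at 0.87 (adjusted p = 0.00058, limma), short of 2-fold. Summed stem cell markers as deposited were 523 and 376 TPM in ES_Obox3, against 1189 and 1009 TPM in ES_Empty. Scaling divides TPM by 1.118 and 0.7646 in ES_Obox3 and by 1.555 and 1.336 in ES_Empty, which narrows this gap. The part of these markers in the cyclin values was not tested.

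With Obox5 no cyclin was called by limma, as deposited (3 of 7 at an unadjusted p under 0.05) or scaled (5 of 7). Of all genes, 5.47% were called lower and 4.79% higher as deposited, and 2.33% lower and 6.16% higher after scaling. As deposited, the value closest to a call was that of Ccne2, the second E-type cyclin. It had 5.48 and 4.74 TPM in ES_Obox5 and 9.80 and 10.2 TPM in ES_Empty (log2 difference -0.85, adjusted p = 0.0121). Ccnd1 came next, with 14.0 and 11.6 TPM in ES_Obox5 and 21.3 and 21.2 TPM in ES_Empty (-0.69, adjusted p = 0.0413). After scaling, the values closest to a call were rises, all short of 2-fold. Ccna2 stood at 0.80 (adjusted p = 0.00117, limma), Ccnd3 at 0.80 (0.00174) and Ccnb1 at 0.79 (0.000447) above ES_Empty (log2). Ccne2 was then at -0.55 (0.0409) and Ccnd1 at -0.38 (0.0341). Summed stem cell markers as deposited were 524 and 517.5 TPM in ES_Obox5, against 1189 and 1009 TPM in ES_Empty. Scaling divides TPM by 1.202 and 1.102 in ES_Obox5 and by 1.555 and 1.336 in ES_Empty, which narrows this gap. The part of these markers in the cyclin values was not tested. The comparisons of all 4 plasmids share the ES_Empty libraries.

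With Obox6, Ccnd1 was high. It had 42.3 and 38.2 TPM in ES_Obox6, against 21.3 and 21.2 TPM in ES_Empty, with no overlap. The log2 fold change was 0.89 as deposited (SE 0.188, adjusted p = 0.0307, limma), short of 2-fold, so that 0 of 7 cyclins were called (2 at an unadjusted p under 0.05), where 2.39% of all genes were called higher and 1.99% lower. After scaling it was 1.12 (SE 0.0967, adjusted p = 0.000826) and Ccnd1 was the 1 cyclin called, where 3.28% of all genes were called higher and 1.16% lower. The other 6 tested cyclins lay between -0.52 (Ccne2) and 0.26 (Ccnb1) as deposited. As deposited, stem cell markers summed to 675 and 550.2 TPM in ES_Obox6, against 1189 and 1009 TPM in ES_Empty. Scaling divides TPM by 1.292 and 1.136 in ES_Obox6 and by 1.555 and 1.336 in ES_Empty, which narrows this gap. The part of these markers in the value of Ccnd1 was not tested.

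**Figure D2:**
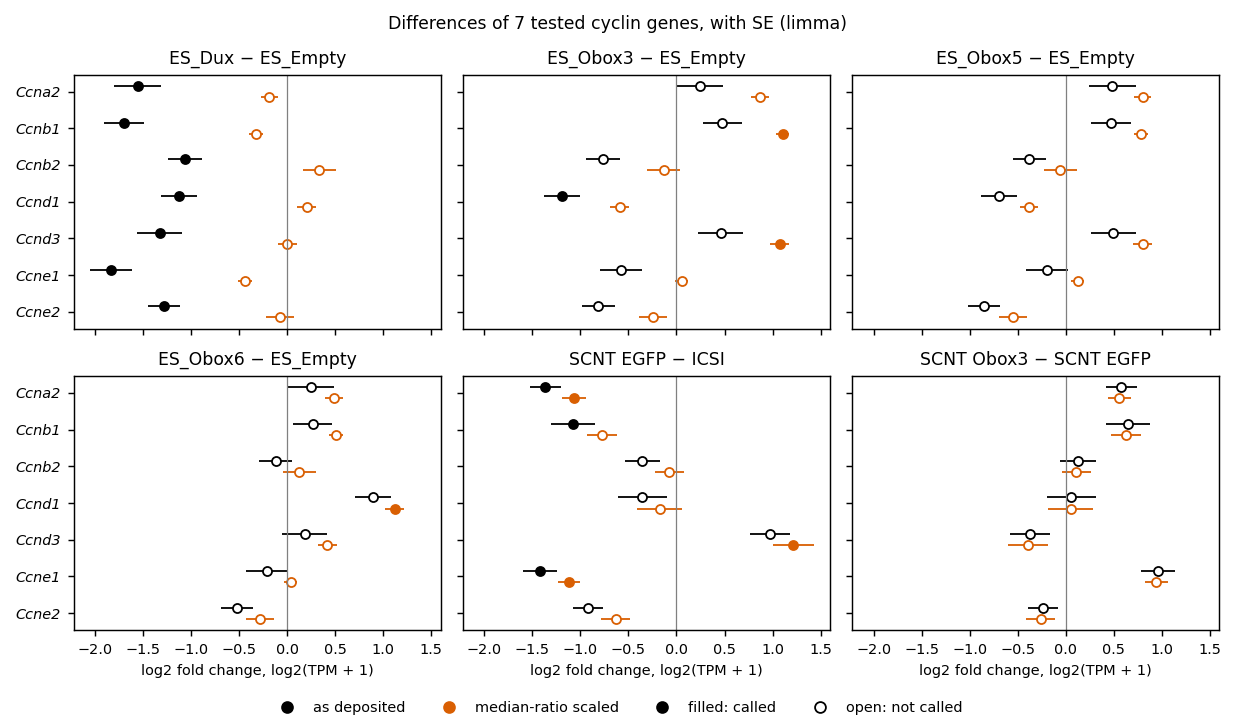
Log2 fold changes with SE from limma for the 7 tested cyclins (rows) in 6 comparisons (panels), as deposited (black) and median-ratio scaled (orange); filled points passed an adjusted p of 0.05 and 2-fold. The black points of ES_Dux minus ES_Empty lie left of -1 and the orange ones between -0.44 and 0.34, while the 2 scales lie close together for SCNT Obox3 minus SCNT EGFP.

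Set against one another, the plasmids differed most in Ccnd1 among the Obox genes. Ccnd1 was lower in ES_Obox3 than in ES_Obox6 by -2.08 (log2; SE 0.188, adjusted p = 0.000617, limma), where 6.61% of all genes were called lower and 2.52% higher, and by -1.71 after scaling (adjusted p = 0.00012), where 3.2% were called lower and 4.36% higher. It was lower in ES_Obox5 than in ES_Obox6 by -1.58 (SE 0.188, adjusted p = 0.0031), where 2% of all genes were called lower and 2.4% higher, and by -1.5 after scaling (adjusted p = 0.000289), where 1.87% were called lower and 3.06% higher. In both comparisons it was the 1 cyclin called on either scale, and without the 3 unnumbered libraries the adjusted p was 0.0517 and 0.0789 at -1.90 and -1.46. ES_Obox3 and ES_Obox5 differed in 0 of 7 cyclins by limma on either scale (1 at an unadjusted p under 0.05 as deposited, 2 after scaling), where 0.0147% of all genes were called lower and 0.0393% higher as deposited, and 0.0295% and 0.0688% after scaling.

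Ccna2, Ccnb1 and Ccnd3 were lower with Dux than with Obox3 on both scales. In ES_Dux minus ES_Obox3 their log2 differences were -1.80, -2.18 and -1.79 as deposited and -1.05, -1.43 and -1.07 after scaling. Ccne1, at -1.25 as deposited, was the remaining one of 4 cyclins called lower, where 20.3% of all genes were called lower and 3.42% higher, and without ES_Obox3 replicate 1 it was -0.97, short of 2-fold. Ccne1 was at -0.49 after scaling, where 3 cyclins were called and 9.46% of all genes were lower and 8.04% higher. Against ES_Obox5, 4 cyclins were lower in ES_Dux as deposited, where 28.9% of all genes were called lower and 2.87% higher, and 1 after scaling, where 7.53% were lower and 6.43% higher (Ccnb1, -1.12, adjusted p = 5.28e-05, limma). Against ES_Obox6, 5 were lower as deposited, where 36.3% of all genes were called lower and 3.74% higher, and 0 after scaling by limma (5 of 7 at an unadjusted p under 0.05), where 6.96% were lower and 6.69% higher.

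Ratios between 2 genes of a library do not depend on the scale between libraries. The ratio of Ccnb1 to Ccnb2 was 0.374 and 0.383 in ES_Dux, 1.61 and 1.31 in ES_Obox3, 1.23 and 0.994 in ES_Obox5 and 0.893 and 0.709 in ES_Obox6, against 0.627 and 0.587 in ES_Empty. It was thus lowest with Dux and highest with Obox3, and no replicated group overlapped ES_Empty. The ratio of Ccnd1 to Ccnd3 was 1.07 and 1.03 in ES_Dux, 0.258 and 0.274 in ES_Obox3, 0.400 and 0.361 in ES_Obox5 and 1.35 and 1.67 in ES_Obox6, against 0.804 and 1.01 in ES_Empty. Ccnd3 exceeded Ccnd1 with Obox3 and Obox5, and Ccnd1 exceeded Ccnd3 with Obox6 and, by little, with Dux. The 2 ES_Empty libraries differed in this order. With 2 libraries against 2, an exact permutation test of a ratio cannot give a two-sided p below 0.333, so none is given. A gene with near copies can take reads from them: Ccnb1-ps, a processed copy of Ccnb1, was listed at 0.658 to 6.37 TPM in mESCs.

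**Figure D3:**
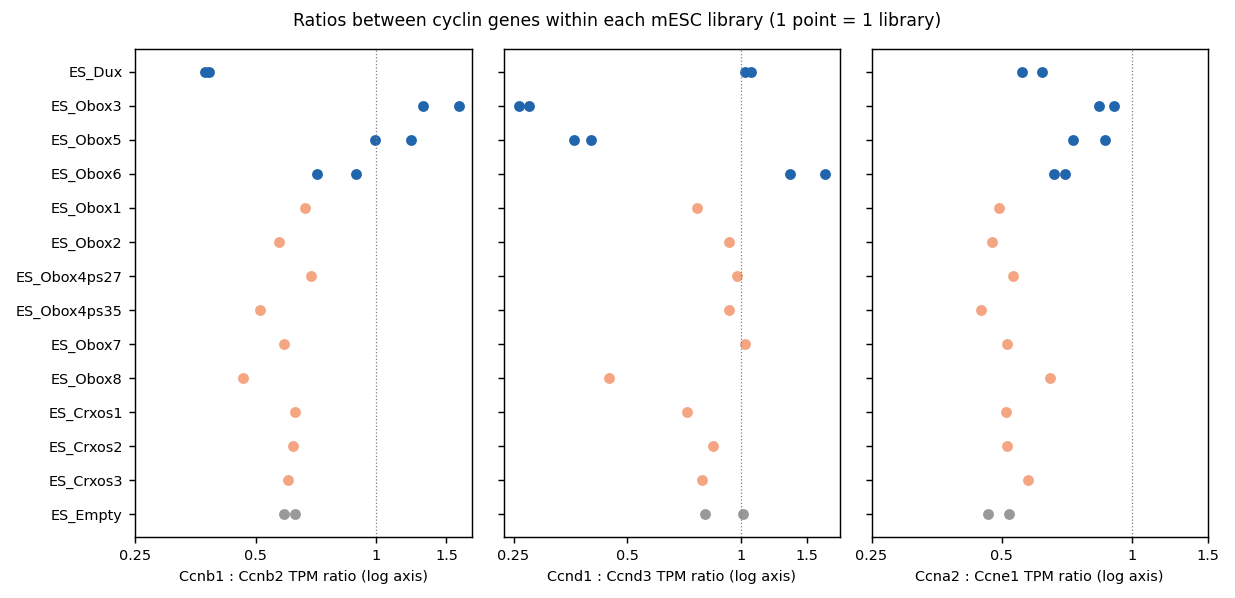
Ratios of TPM between 2 cyclin genes within each of 19 mESC libraries (log axes; 1 point is 1 library; blue for the replicated plasmids, orange for single constructs, grey for ES_Empty). In the Ccnb1 to Ccnb2 panel ES_Obox3 lies at 1.31 and 1.61 and ES_Dux at 0.374 and 0.383; in the Ccnd1 to Ccnd3 panel ES_Obox8 lies at 0.447, apart from the other single constructs.

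Across the 9 constructs with 1 library each, the 7 cyclins tested above stayed within 2-fold of the empty plasmid on the log2(TPM + 1) scale. There is no replicate check for these libraries and no test. This held as deposited and scaled, where the share of all genes past 2-fold was 7.44% for ES_Obox1, 6.77% for ES_Obox2, 7.76% for ES_Obox4ps27, 7.91% for ES_Obox4ps35, 9.73% for ES_Obox7, 10.2% for ES_Obox8, 6.7% for ES_Crxos1, 6.84% for ES_Crxos2 and 9.43% for ES_Crxos3. After scaling these shares were 6.14%, 5.74%, 6.01%, 6.8%, 7.85%, 8.6%, 5.46%, 5.89% and 8.16% in the same order. The farthest value was Ccnd1 in ES_Obox8, with 12 TPM, against 21.3 and 21.2 TPM in ES_Empty (difference in log2(TPM + 1) of -0.77). The same library had the highest Ccnb2 of all 19, at 110.8 TPM (0.34). Ccne2 in ES_Obox7 was at 6.06 TPM, against 9.80 and 10.2 TPM in ES_Empty (-0.64). Ccnd2, which promotes G1 progression in neural and gonadal cells, was at 0.266 TPM in ES_Obox4ps35 and 1.44 TPM in ES_Obox4ps27, against 0.77 and 0.83 TPM in ES_Empty. The log2(TPM + 1) scale cannot show a 2-fold fall of a gene this low.

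**Figure D4:**
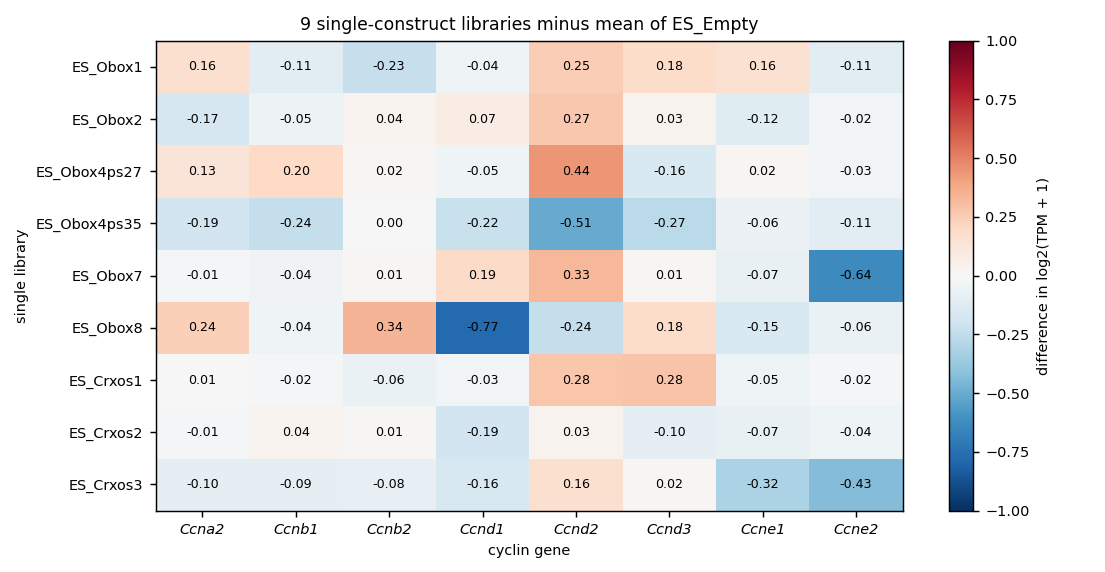
Difference in log2(TPM + 1) between each single-construct library (rows) and the mean of ES_Empty for 8 cyclin genes (columns), as deposited; the colour scale runs from -1 (blue) to 1 (red) and each cell prints its value. The darkest cell is Ccnd1 in ES_Obox8, at -0.77.

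Ccnd2 rested on few reads, and Ccna1 was near the lowest level these libraries can show. Assuming the transcript lengths that make their TPM multiples of 0.5 reads in all 25 libraries (9409 bases for Ccnd2, 1835 bases for Ccna1), Ccnd2 rested on 23.5 and 15.5 reads in ES_Dux, 16.5 and 11 in ES_Obox3, 9.0 and 5.5 in ES_Obox5 and 15.0 and 8.5 in ES_Obox6, against 27.0 and 38.0 in ES_Empty. All 8 libraries of these replicated plasmid groups had fewer reads than both ES_Empty libraries, at library depths that differ. The single-construct libraries ranged from 9.0 reads in ES_Obox4ps35 to 51.0 in ES_Crxos1. Ccna1 rested on 0 to 5 reads in mESCs, so no difference in it was detectable at this depth. Read counts double if the lengths are double.

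The levels of some cyclins moved together across mESC libraries, after scaling. Over the 19 libraries Ccna2 had a Pearson r of 0.953 with Ccnb1 and 0.924 with Ccnd3, whereas Ccnb1 and Ccnb2 had -0.353. Of 15136 genes searched, those most like Ccna2 were Syap1 (0.984) and Spindoc (0.98), those most like Ccnb1 were Plekho2 (0.974) and Rbsn (0.974), those most like Ccnd3 were Ipmk (0.97) and Yap1 (0.962), and those most like Ccnd1 were Susd2 (0.939) and Trh (0.932). For Ccne1 they were Commd5 (0.857) and Gm49527 (0.846), for Ccnb2 Mtch1 (0.813) and Rps7 (0.796), and for Ccne2 Ndufb4 (0.744) and Rmi1 (0.726). The libraries share plasmid groups and the scaling, so these values describe them and carry no p.

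In late 2-cell embryos the order of levels was another. ICSI embryos had 444 ± 71.8 TPM of Ccne1 (SD, n = 2), 209.6 ± 0.0507 of Ccna2, 163.5 ± 12.7 of Ccnb1, 30.9 ± 0.870 of Ccne2, 14.3 ± 0.483 of Ccnb2, 3.60 ± 0.0544 of Ccnd3 and 1.86 ± 0.0142 of Ccnd1, and no neighbours in this order overlapped. D-type cyclins made up 0.684% and 0.590% of the summed cyclin TPM in ICSI embryos and 12.7% and 13.1% in ES_Empty mESCs. The 2 tables may have been normalized separately, and no test was made across them. Ccna1 was listed at 0 in all 6 embryo libraries.

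SCNT embryos injected with EGFP had less Ccne1, Ccna2 and Ccnb1 than ICSI embryos. Ccne1 had 160.4 and 167.8 TPM in SCNT_EGFP embryos, against 393.1 and 494.7 TPM in ICSI embryos. Ccna2 had 74.2 and 87.5 TPM in SCNT_EGFP embryos, against 209.5 and 209.6 TPM in ICSI embryos. Neither gene overlapped between the groups. The log2 fold changes were -1.42 for Ccne1 (SE 0.177, adjusted p = 0.00428, limma) and -1.37 for Ccna2 (SE 0.162, adjusted p = 0.0038), and -1.12 and -1.07 after scaling, both still called, where 7.86% of all genes were called lower.

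Ccnb1 had 63.0 and 94.1 TPM in SCNT_EGFP embryos, against 154.5 and 172.6 TPM in ICSI embryos, and was the third of 3 cyclins called lower, where 12.5% of all genes were called lower and 4.8% higher. Its log2 fold change was -1.08 (SE 0.231, adjusted p = 0.0201, limma), and the call was lost after scaling (-0.78), without either ICSI library or SCNT_EGFP replicate 1, and with no filter on low values (adjusted p = 0.0541). Ccnd3 ran the other way, with 8.72 and 7.35 TPM in SCNT_EGFP embryos and 3.63 and 3.56 TPM in ICSI embryos. Its log2 difference was 0.97 as deposited (adjusted p = 0.0193), short of 2-fold, and 1.22 after scaling (SE 0.209, adjusted p = 0.0135), where it was called higher and 6.93% of all genes were. Ccne2 had 16.1 and 15.6 TPM in SCNT_EGFP embryos, against 31.5 and 30.3 TPM in ICSI embryos (-0.92, adjusted p = 0.0101), short of 2-fold. Ccnb2 (-0.35) and Ccnd1 (-0.35) were not called.

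In SCNT embryos given Obox3 mRNA, Ccne1 stood above both EGFP libraries, without reaching a call. Ccne1 had 317.8 and 323.8 TPM in SCNT_Obox3 embryos, against 160.4 and 167.8 TPM in SCNT_EGFP embryos, and both SCNT_Obox3 libraries lay below both ICSI libraries. The log2 difference from SCNT_EGFP was 0.96 (SE 0.177, adjusted p = 0.0895, limma), and 0.94 after scaling (adjusted p = 0.0423), short of 2-fold. Ccna2 had 123.3 and 118.6 TPM in SCNT_Obox3 embryos, against 74.2 and 87.5 TPM in SCNT_EGFP embryos (0.58, adjusted p = 0.146), and Ccnb1 had 111.2 and 132.3 TPM in SCNT_Obox3 embryos, against 63.0 and 94.1 TPM in SCNT_EGFP embryos (0.65, adjusted p = 0.218). In all, 0 of 7 cyclins were called between the SCNT groups on either scale (3 at an unadjusted p under 0.05), where 0.11% of all genes were called higher and 0.0438% lower as deposited, and 1.06% and 0.164% after scaling. The Obox3 transcript itself was listed at 5.02 to 6.74 TPM in SCNT_Obox3 embryos and at 0.47 to 3.22 TPM in SCNT_EGFP embryos, against 64.6 to 78.7 TPM in ICSI embryos.

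Against ICSI embryos, SCNT_Obox3 embryos had 1 cyclin called, lower, where 6.31% of all genes were called lower and 2.8% higher. It was Ccne2, with 12.8 and 13.6 TPM in SCNT_Obox3 embryos, against 31.5 and 30.3 TPM in ICSI embryos (log2 fold change -1.16, SE 0.157, adjusted p = 0.011, limma). The call was lost without ICSI replicate 1 or either SCNT_Obox3 library, at adjusted p values of 0.0541 to 0.0633. After scaling it was -0.89 and 0 cyclins were called by limma (3 at an unadjusted p under 0.05), where 3.64% of all genes were lower and 4.16% higher. The ratio of the E-type cyclins also differed between groups: Ccne1 was 24.7 and 23.7 times Ccne2 in SCNT_Obox3 embryos and 9.98 and 10.8 times Ccne2 in SCNT_EGFP embryos, against 12.5 and 16.3 times in ICSI embryos. The comparisons of SCNT_EGFP and SCNT_Obox3 with ICSI share the ICSI libraries.

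Ccnd2 was low throughout but ordered by group. It had 0.214 and 0.283 TPM in SCNT_Obox3 embryos and 1.11 and 0.488 TPM in SCNT_EGFP embryos, against 0.0502 and 0.0420 TPM in ICSI embryos. By the length above, these are 28 and 21 reads in SCNT_Obox3 embryos and 100.5 and 47 reads in SCNT_EGFP embryos, against 3.5 and 2 reads in ICSI embryos. The groups did not overlap, and the gene stood under the filter. Without the filter SCNT_EGFP minus ICSI was 0.76 on the log2(TPM + 1) scale (SE 0.249, adjusted p = 0.147, limma), which understates a change at this level. Markers of cumulus cells, the source of the transferred nuclei, summed to at most 1.93 TPM in any embryo library. Oocyte markers summed to 332 and 331 TPM in SCNT_Obox3 embryos and 385 and 420 TPM in SCNT_EGFP embryos, against 579 and 510 TPM in ICSI embryos, and 2-cell markers to 102 and 170.5 TPM in SCNT_Obox3 embryos and 66.9 and 93.7 TPM in SCNT_EGFP embryos, against 392 and 271 TPM in ICSI embryos. Their part in the cyclin differences was not tested.

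**Figure D5:**
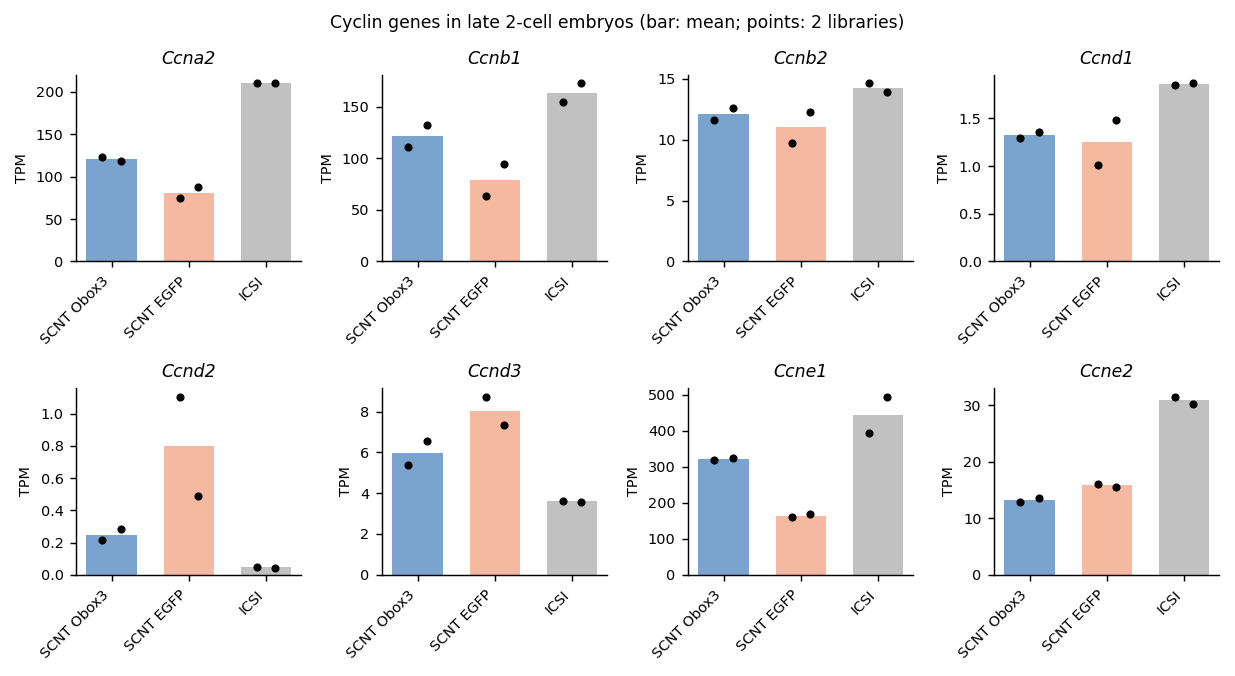
TPM of 8 cyclin genes (one panel each, linear axes from 0) in late 2-cell SCNT embryos injected with Obox3 mRNA, SCNT embryos injected with EGFP mRNA, and ICSI embryos; bars are means and points the 2 libraries of a group. Ccne1 lies at 317.8 and 323.8 TPM with Obox3, at 160.4 and 167.8 TPM with EGFP and at 393.1 and 494.7 TPM in ICSI embryos, while Ccnd3 is lowest in ICSI embryos.

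The genes that work with the cyclins were examined as 7 lists, of which 67 genes were tested in mESCs and 69 in embryos. With Dux, 11 of 13 tested other cyclins, 7 of 7 kinases and Cks subunits and 14 of 14 mitotic genes fell as deposited (medians -1.38, -1.63 and -1.73, against -0.97 over all genes), and 0, 1 and 0 of them after scaling. After scaling the medians of these lists were -0.15, -0.56 and -0.44, against -0.06 over all genes. Of all genes tested, 44.4% fell as deposited and 2.3% after scaling. As deposited, 3 of 6 inhibitor genes, 4 of 4 kinases and phosphatases of Cdk1, 8 of 10 degradation genes and 11 of 13 Rb and E2F genes also fell in ES_Dux, and after scaling 0, 0, 0 and 1 did. The share of the inhibitor genes is near the 44.4% of all genes. The 1 kinase was Cdk7, the kinase that activates the cell cycle kinases, at -1.01. With Obox3, Cdk6, the partner of D-type cyclins, had 0.795 ± 0.308 TPM in ES_Obox3 and 7.31 ± 1.74 TPM in ES_Empty (SD, n = 2 each), and fell by 2.21 (log2; 1.72 after scaling). Ccno, a cyclin-like gene of multiciliated cells, had 2.57 ± 0.255 TPM in ES_Obox3 and 0.278 ± 0.0527 TPM in ES_Empty, and rose by 1.48 (1.67 after scaling). E2f8 and E2f2, transcription factors of the E2F family, fell by 1.76 and 1.52 in ES_Obox3, and by 1.20 and 1.08 after scaling.

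After scaling, Cks2, a small Cdk-binding subunit, rose by 1.31 in ES_Obox3 and the ligase subunit Skp2 by 1.24. The mitotic kinases Plk1 and Aurka rose by 1.08 and 1.05. None of these genes was called as deposited. Of 14 mitotic genes, 2 were called higher after scaling, where 7.74% of all genes were. The list median was then 0.06, against 0.003 over all genes. As deposited, 2 mitotic genes were called, both lower: Cenpf by 1.40 and Mybl2 by 1.06. As deposited, 4 of 4 kinases and phosphatases of Cdk1 fell in ES_Obox3, among them Wee1 by 1.35 and Cdc25a by 1.22, and 0 after scaling, where 13.6% of all genes fell as deposited and 3.76% after scaling. In ES_Obox5, Cdk6 fell by 1.91 and Ccno rose by 1.97 (1.57 and 1.91 after scaling). Skp2 and Cdc20, the activator of the anaphase-promoting complex, rose after scaling by 1.18 and 1.06. In ES_Obox6 the 1 call across the 7 lists was Tfdp1, the partner of E2F proteins, which fell by 1.01 as deposited and was not called after scaling. Of all genes, 1.99% were called lower and 2.39% higher in ES_Obox6, so that 1 call among the 67 genes is no more than the background.

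In SCNT_EGFP embryos, 4 of 6 tested kinases and Cks subunits fell against ICSI embryos (0 after scaling). Among them were Cks2, by 1.22, and Cks1b, by 1.20. Of all genes, 12.5% fell and 4.8% rose as deposited, and 7.86% and 6.93% after scaling. Of 12 tested Rb and E2F genes, 2 were called higher and 2 lower as deposited. Among 14 other cyclins 1 was called higher and 2 lower, and 2 of 7 inhibitor genes were called lower. The remaining lists had calls in 0 of 14 mitotic genes, 0 of 5 kinases and phosphatases of Cdk1 and 1 of 11 degradation genes. Over all lists 14 of the 69 genes were called as deposited and 7 after scaling. The 14 are near the background of all genes called lower or higher. Ccni, a cyclin-like gene, rose by 1.23 (1.51 after scaling) and Ccnc, the cyclin of the Mediator kinase module, fell by 1.33 (1.06 after scaling). E2f8 rose by 1.42 and E2f7 fell by 1.42. Ube2c, which loads ubiquitin onto B-type cyclins, fell by 1.13 and was not called after scaling. In SCNT_Obox3 embryos Cdk4 had 10.9 ± 2.28 TPM, against 4.03 ± 0.209 TPM in ICSI embryos (SD, n = 2 each), and rose by 1.24 (1.47 after scaling). The inhibitor gene Cdkn2c fell by 1.41 there (1.19 after scaling), while the inhibitor gene Cdkn1a rose by 1.39 after scaling. Of 7 inhibitor genes, 1 was called higher and 2 lower on either scale. Over all lists, 10 of the 69 genes were called in SCNT_Obox3 minus ICSI as deposited and 8 after scaling. Of all genes, 6.31% were called lower and 2.8% higher as deposited, and 3.64% and 4.16% after scaling. Between SCNT_Obox3 and SCNT_EGFP embryos, 0 of the 69 genes were called by limma on either scale (17 at an unadjusted p under 0.05 as deposited, 23 after scaling), where 0.11% of all genes were called higher and 0.0438% lower as deposited, and 1.06% and 0.164% after scaling.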

How the data were processed

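Libraries of total RNA were made with a stranded SMART-seq kit, per the labels' protocols. The authors deposited 2 tables of TPM, 1 for 19 mESC and 1 for 6 embryo libraries. The submitters' processing notes name Trim Galore, HISAT2, featureCounts 1.6.5 and mm10, with no role stated for each. TPM keeps no library totals, so the depth is known only from its low values: 1 read on a 1-kb gene was worth 0.136 to 0.441 TPM in mESCs and 0.0718 to 0.198 TPM in embryos, recovered from small-RNA genes of RefSeq length. Of 88 samples in the series, 63 are not analysed here. One library each of ES_Dux, ES_Obox3 and ES_Obox5 carries a column number that no sample of its group has, and was assigned to its group only (the unnumbered libraries).

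Differences were tested with limma 3.58.1 (R 4.3.3, trend and robust options) on log2(TPM + 1), over genes at 1 TPM or more in 2 or more libraries (20355 in 10 mESC libraries, 18252 in 6 embryo libraries), fitting all groups of a table together, with Benjamini-Hochberg adjustment over all genes. A fold change on this scale understates the change of low genes. Calls needed an adjusted p under 0.05 and 2-fold. Scripts were tested on simulated data. Alternatives were median-ratio scaling, a pseudocount of 0.1, no filter, each library left out, and a replicate block. From each list of cell cycle genes, the called genes with the 2 largest changes per comparison could be named. The members and lists were chosen with earlier results of these data known. Figures were drawn with matplotlib 3.10.9.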

Additional observations from a re-analysis of the deposited data

How the results depend on the processing

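Median-ratio scaling moved the count of called cyclins to 0 for ES_Dux minus ES_Empty, 2 for ES_Obox3 minus ES_Empty, 1 for ES_Obox6 minus ES_Empty, 1 for ES_Dux minus ES_Obox5, 0 for ES_Dux minus ES_Obox6 and 0 for SCNT_Obox3 minus ICSI. The sign turned for Ccnb2 (0.34) and Ccnd1 (0.20) in ES_Dux minus ES_Empty. With scaling and one library left out, chosen after seeing the data, these 2 ranged from 0.33 to 0.35 and from 0.10 to 0.30, with Ccnd1 at 0.22 and 0.18 without either ES_Dux library. Ccnd3 turned sign at 0.057 without ES_Empty replicate 1 and at 0.042 without ES_Dux replicate 1, and Ccne2 at 0.0496 without ES_Empty replicate 2. The counts then ranged from 0 to 0 for ES_Dux minus ES_Empty, 2 to 3 for ES_Dux minus ES_Obox3, 1 to 2 for ES_Dux minus ES_Obox5, 0 to 0 for ES_Dux minus ES_Obox6, 2 to 2 for ES_Obox3 minus ES_Empty, 1 to 1 for ES_Obox6 minus ES_Empty and 0 to 0 for SCNT_Obox3 minus ICSI. In SCNT_EGFP minus ICSI, the scaled call held in 6 of 6 such fits for Ccne1, 5 for Ccna2 and 4 for Ccnd3. As deposited, leaving out one library gave 6 to 7 calls for ES_Dux minus ES_Empty (Ccnb2 lost without ES_Empty replicate 1), 3 to 4 for ES_Dux minus ES_Obox3 (Ccne1 lost at -0.97 without ES_Obox3 replicate 1), 2 to 4 for SCNT_EGFP minus ICSI and 0 to 1 for SCNT_Obox3 minus ICSI, where Ccne2 was lost without ICSI replicate 1 or either SCNT_Obox3 library. Without the 3 unnumbered libraries, also chosen after seeing the data, the Ccnd1 calls in ES_Obox3 minus ES_Obox6 and ES_Obox5 minus ES_Obox6 were lost. ES_Obox3 and ES_Obox5 then had 1 library each, assumed to vary like the others, while ES_Obox6 kept 2. The pseudocount of 0.1 and the absence of a filter moved no count by over 1.5 times, but with no filter Ccnb1 was lost in SCNT_EGFP minus ICSI (adjusted p = 0.0541, 2 calls in place of 3), and with the pseudocount of 0.1 Ccnd3 was called there (1.13, adjusted p = 0.0189). Beyond the scaling, whose construction shifts all genes of a library together, the cause of a changed count was not tested.

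Replicate numbers share no stated animal or day, and deviations of same-numbered libraries correlated by 0.014 to 0.0666 (4 group pairs), so they were not taken as pairs. With the replicate block, 0 cyclins were called in ES_Obox6 minus ES_Empty, 3 in SCNT_EGFP minus ICSI, 0 in SCNT_Obox3 minus SCNT_EGFP and 1 in SCNT_Obox3 minus ICSI, as without it. The other mESC groups share fewer than 2 numbers, and no block could be fitted. Groups of 2 libraries limit the precision of every value, and the number of reads limits Ccna1 most.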
